A study of Mus musculus with 10 samples.

Results

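The presynaptic active zone scaffold was followed through 10 genes, which are Unc13a, Unc13b, Unc13c, Rims1, Rims2, Rims3, Bsn, Pclo, Erc1 and Erc2. They were taken by symbol from the mRNA tables of the series, and all 10 were present among 40904 gene symbols. Of the 10, 9 had a mean of at least 1 FPKM (fragment counts scaled to transcript length and to library size) over both libraries and entered the comparison, beside 13740 genes in all. Unc13c did not reach that level.

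The cells were cortical neurons of ICR mice, cultured from embryonic day 14 (E14) and taken at day 11 in vitro. The neurons had received an adeno-associated virus, which was either AAV-Control or AAV-Gata1. The sources used here name neither the promoter of the virus nor the share of cells that took it up, and they do not say how many embryos or cultures went into a library. Each condition had 1 mRNA library, so no difference below has a replicate check, none was tested, and no spread within a condition can be given. Gata1, a transcription factor of blood cell development, was listed at 0 FPKM in the AAV-Control library and at 2.07 FPKM in the AAV-Gata1 library. The tables summed to 476398 and 476848 FPKM, and the depth behind the values is unknown.

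The active zone is the patch of presynaptic membrane where synaptic vesicles dock and fuse. Munc13 proteins, the products of the Unc13 genes, prime docked vesicles by opening syntaxin for SNARE assembly. RIM proteins bind Rab3 on the vesicle, Munc13 and calcium channels, and so place release-ready vesicles beside the entry of calcium. Bassoon and Piccolo are very large scaffold proteins that tether the vesicle cluster, and the ELKS proteins encoded by Erc1 and Erc2 bind RIM, Bassoon and Piccolo.

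The members' promoters are described first, because the delivered factor is a DNA-binding protein whose core recognition letters are GATA. RefSeq sequences of build GRCm38.p6, which run from 250 bases before to 50 bases after an annotated start (300 bases), were matched for 9 of the 10 members by symbol, all but Rims2. The letters GATA on either strand were found in 4 of the 9, which are Unc13a, Unc13b, Unc13c and Rims3, and in 57.9% of all 32817 promoters of the same length. The longer forms AGATAA or TGATAA, and likewise AGATAG or TGATAG, each of which contains GATA, were found on either strand in 1 member, Unc13b, and in 29.8% of all promoters. Promoters of 4 members are shown, with GATA or its reverse complement TATC in capitals. Of the members compared, Unc13a had the largest difference between the libraries relative to its level, and Unc13b is its paralog with the next highest level. Rims3 was slightly higher after AAV-Gata1. Pclo, whose relative difference was second largest by the higher of its 2 rows, holds no such letters. Its other row went the opposite way. Written 5′ to 3′ along the gene's strand, they lie at chr8:71671708-71672007 (minus strand) for Unc13a, chr4:43058703-43059002 (plus strand) for Unc13b, chr4:120854549-120854848 (plus strand) for Rims3 and chr5:14514668-14514967 (plus strand) for Pclo.
Unc13a: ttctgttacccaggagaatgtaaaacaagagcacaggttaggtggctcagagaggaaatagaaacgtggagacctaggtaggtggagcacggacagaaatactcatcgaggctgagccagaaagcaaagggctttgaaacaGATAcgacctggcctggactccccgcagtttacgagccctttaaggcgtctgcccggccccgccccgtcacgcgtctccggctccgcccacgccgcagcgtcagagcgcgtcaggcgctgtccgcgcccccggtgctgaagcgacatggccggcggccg
Unc13b: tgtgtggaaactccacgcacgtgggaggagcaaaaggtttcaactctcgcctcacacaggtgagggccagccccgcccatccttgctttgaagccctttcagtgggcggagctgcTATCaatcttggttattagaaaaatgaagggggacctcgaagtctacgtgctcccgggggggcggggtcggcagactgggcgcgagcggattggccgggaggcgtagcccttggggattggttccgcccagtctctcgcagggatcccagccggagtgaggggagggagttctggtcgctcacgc
Rims3: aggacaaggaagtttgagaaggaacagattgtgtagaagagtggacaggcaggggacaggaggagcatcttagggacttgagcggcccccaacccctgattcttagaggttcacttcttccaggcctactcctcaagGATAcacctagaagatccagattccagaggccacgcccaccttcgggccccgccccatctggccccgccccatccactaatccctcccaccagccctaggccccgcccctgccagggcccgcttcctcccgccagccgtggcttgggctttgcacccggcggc
Pclo: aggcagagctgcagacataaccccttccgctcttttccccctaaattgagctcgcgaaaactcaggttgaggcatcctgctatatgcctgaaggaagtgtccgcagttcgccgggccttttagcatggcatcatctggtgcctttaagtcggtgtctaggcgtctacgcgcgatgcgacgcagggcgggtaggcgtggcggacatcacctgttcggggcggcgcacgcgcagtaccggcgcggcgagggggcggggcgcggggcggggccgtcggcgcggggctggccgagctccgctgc

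In Unc13a the letters GATA stood 109 to 106 bases before the annotated start, and in Rims3 they stood 113 to 110 bases before it, both on the gene's strand. In Unc13b the letters were on the opposite strand, 135 to 132 bases before the start, within the longer form TGATAG. Unc13c held them on the opposite strand as well, 193 to 190 bases before the start. Of the 4 promoters with GATA, 1 belonged to the member furthest below its control value and 2 to members close to theirs. The remaining 1 belonged to a member under the level of comparison. A link between the letters and the levels was not tested. The letters are matches in a window and not sites of binding, and the annotated start need not be the one used in these neurons. For Unc13b and Unc13c the annotated gene begins upstream of the window used.

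In most of the members' promoters the content of G and C was high. It ranged from 59.3% in Unc13c to 77.0% in Erc1, with a median of 66.0%. Over all promoters, not only those of genes expressed here, the median was 52.7% and the upper quartile 61.7%. Unc13c and Unc13a (61.3%) lay under that quartile. The number of CpG dinucleotides had a median of 27 among the 9 members and of 7 among all promoters. Unc13c, whose annotated gene begins upstream of the window, was lowest with 6. The letters GGGCGG, the core of the box bound by Sp1 family factors, were found on either strand in 8 of the 9 members and in 35.6% of all promoters. Bsn was the exception. The letters TATAAA were in none of the 9 and in 13.6% of all promoters, and TGACGTCA, the CRE palindrome, was in none of the 9 and in 1.79% of all.

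In the AAV-Control library the order of FPKM was Erc1, Unc13a, Erc2, Rims3, Rims1, Unc13b, Bsn, Pclo, Rims2 and Unc13c, from 24.8 down to 0.200 FPKM. Erc1, which many cell types outside the nervous system also express, was higher than 70.0% of the genes compared. Unc13a at 14.4 FPKM and Rims2 at 4.37 FPKM were higher than 53.5% and 21.5% of them. In the AAV-Gata1 library the order was the same except that Rims3 moved from place 4 to place 2 and Unc13a from place 2 to place 4. With 1 library per condition it cannot be said which neighbours in this order differ beyond their spread. The summed FPKM of the 10 genes was 105 in the AAV-Control and 98.4 in the AAV-Gata1 library.

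**Figure D1:**
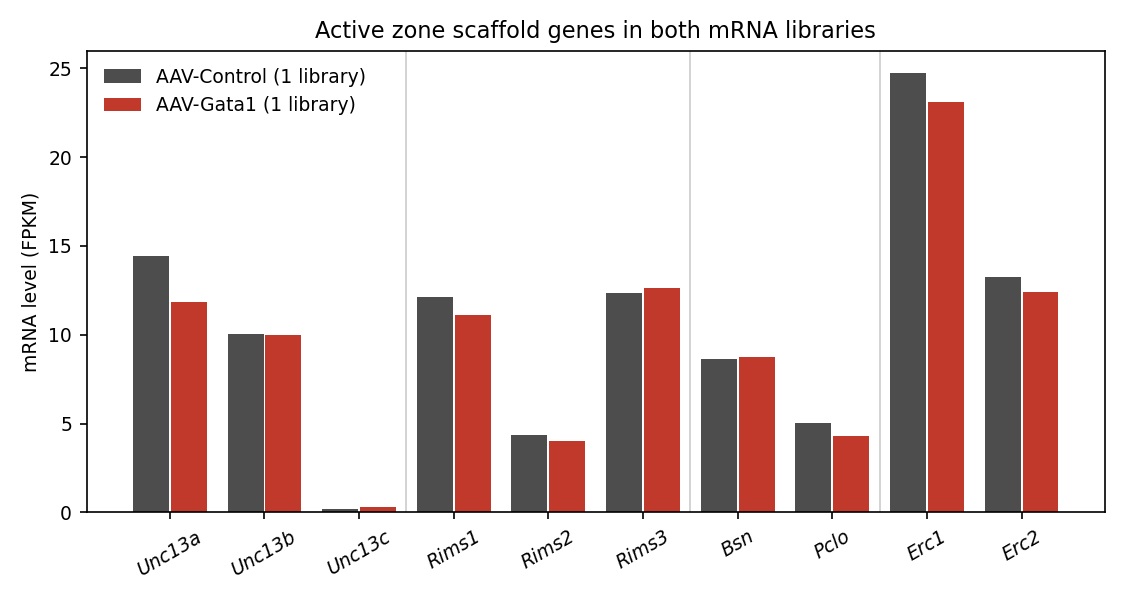
FPKM of the 10 active zone scaffold genes on the vertical axis, with 1 bar for the AAV-Control library (grey) and 1 for the AAV-Gata1 library (red); grey lines separate the families, and there are no error bars because each bar is 1 library. Unc13a stood at 14.4 and 11.8 FPKM, the widest gap in the plot, while Unc13b, Rims3 and Bsn had bars of nearly equal height.

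After AAV-Gata1 most of the scaffold genes were slightly lower. The difference is given as log2((AAV-Gata1 FPKM + 1)/(AAV-Control FPKM + 1)), a scale that understates differences of genes with low values. Of the 9 members compared 7 were lower and 2 higher in the AAV-Gata1 library, while 54.7% of all genes compared were lower and 45.3% higher. The median log2 ratio of the 9 was −0.096, beside −0.013 for all genes, and relative to the median of the neuron markers described further on it was −0.030. The members ranged from −0.27 for Unc13a to 0.031 for Rims3. A limit of 1.2-fold, a rule of size, was passed by 1 member, Unc13a, on the lower side, where 3.98% of all genes passed it. With ratios centred on the median of all genes (Unc13a at −0.25) or of the neuron markers (−0.20), 0 members passed it. No member passed it on the higher side, where 3.29% of all genes did, and none was 2-fold apart, as 0.517% of all genes were. The central 90% of all genes compared lay between log2 ratios of −0.24 and 0.21, and 8 of the 9 members lay inside that range.

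**Figure D2:**
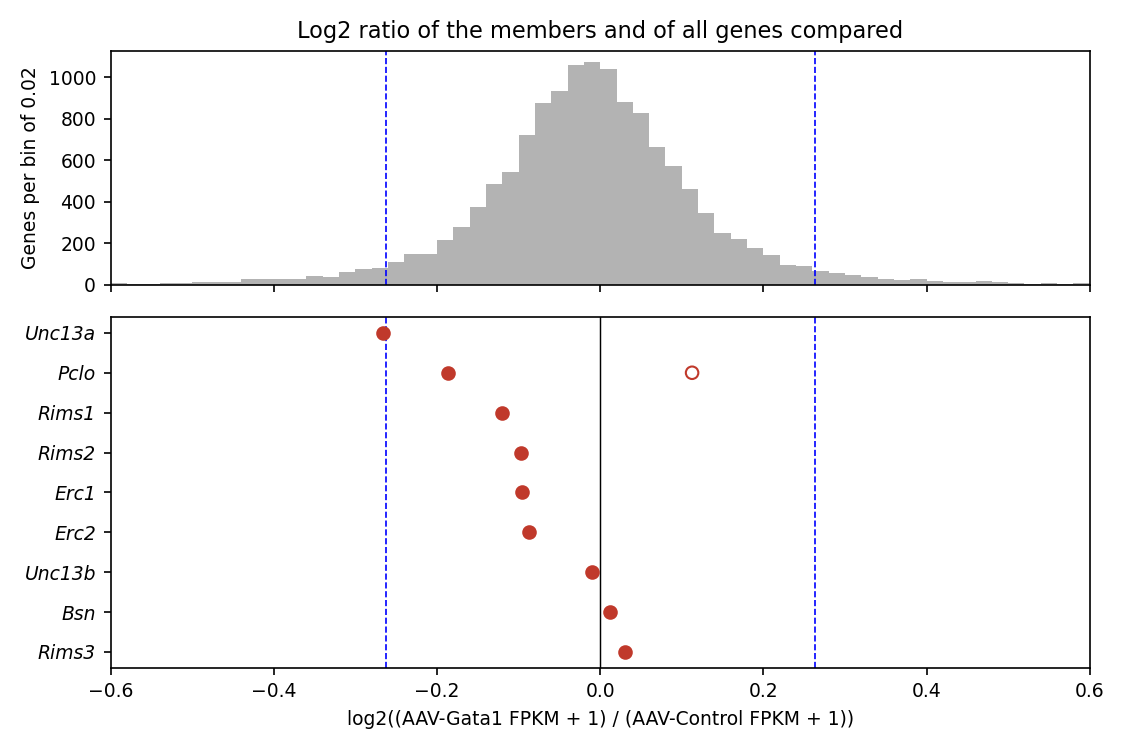
Upper panel, number of genes per bin of 0.02 in log2 ratio (AAV-Gata1 over AAV-Control, FPKM + 1) for the 13740 genes compared, of which 166 lie outside the plotted range of ±0.6. Lower panel, the log2 ratio of the 9 members compared (filled points) and of the second row of Pclo (open point); dashed lines mark 1.2-fold. Unc13a sits just past the lower line at −0.27, and the other members lie between the lines.

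The Unc13 genes differed among themselves. Unc13a encodes Munc13-1, the main priming factor at glutamatergic synapses of the forebrain. It stood at 14.4 FPKM in the AAV-Control and at 11.8 FPKM in the AAV-Gata1 library, which is 82.0% of the control value. Its log2 ratio was −0.27, and 530 of the 13740 genes compared had a lower one (3.86%). Among the 10401 genes that averaged 5 FPKM or more, 2.21% had a lower one. Unc13a overlaps Colgalt1 in the RefSeq annotation, a collagen galactosyltransferase gene that stood at 19.9 and 18.3 FPKM, and Unc13b overlaps Fam214b, which stood at 22.1 and 21.6 FPKM. The sources used here do not say how fragments from the shared stretches were assigned.

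Unc13b encodes Munc13-2, which primes vesicles at a subset of synapses and in an isoform made outside neurons. It stood at 10.1 and 9.99 FPKM, or 99.2% of the control value, near the middle of all genes (50.9% had a lower log2 ratio). The FPKM of Unc13a was 1.43 times that of Unc13b in the AAV-Control and 1.19 times in the AAV-Gata1 library, a ratio within each library that no scaling between libraries can alter, though the overlaps with Colgalt1 and Fam214b touch it. Unc13c, which encodes Munc13-3 and is known mainly from the cerebellum, was at 0.200 and 0.312 FPKM, too low for a comparison. Unc13a accordingly made up 58.4% of the summed FPKM of the 3 genes in the control and 53.5% after AAV-Gata1, and Unc13b 40.7% and 45.1%. The remaining paralog Unc13d, whose product acts in granule release of blood cells, stood at 1.95 and 1.32 FPKM (log2 ratio −0.35).

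Among the RIM genes Rims1 and Rims2 were slightly lower and Rims3 slightly higher after AAV-Gata1. Rims1 encodes RIM1, the principal Rab3-binding scaffold of cortical synapses, and stood at 12.1 FPKM in the AAV-Control and 11.1 FPKM in the AAV-Gata1 library (log2 ratio −0.12). Rims2, its close relative, stood at 4.37 and 4.02 FPKM (log2 ratio −0.097). The ratio of Rims1 to Rims2 was nearly the same in both libraries, at 2.78 and 2.76. Rims3 encodes a short RIM with only the C-terminal C2 domain, without the part that binds Rab3 and Munc13. It stood at 12.4 and 12.7 FPKM (log2 ratio 0.031), so that its ratio to Rims1 was 1.02 in the control and 1.14 after AAV-Gata1. Its share of the summed FPKM of Rims1, Rims2 and Rims3 was 42.8% and 45.6%. Rims4, the other gene of a short RIM, stood at 6.18 and 6.03 FPKM (log2 ratio −0.031), so the short RIM genes lay on either side of 0. Rims1 and Rims2 also make other forms from internal starts, which a value per gene does not separate.

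Bsn and Pclo encode Bassoon and Piccolo, relatives that are partly redundant in clustering vesicles. Bsn stood at 8.66 FPKM in the AAV-Control and 8.74 FPKM in the AAV-Gata1 library (log2 ratio 0.013). Pclo appeared in 2 rows of each table, and the row with the higher mean, which was used for the counts, stood at 5.01 and 4.28 FPKM (log2 ratio −0.19). Its other row went the opposite way, at 2.74 and 3.05 FPKM (log2 ratio 0.11). The tables give symbols only, so which transcripts each row covers is not known. The sum of both rows was 7.76 and 7.33 FPKM, with a log2 ratio of −0.072, and the difference of Pclo therefore depends on the row. The same holds for the ratio of Bsn to Pclo, which was 1.73 and 2.04 with the higher row. Bsn made up 63.3% and 67.1% of the pair with that row, 52.7% and 54.4% with both rows summed, and 75.9% and 74.2% with the other row.

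The ELKS genes stood in the same proportion in both libraries. Erc1, the most abundant member, stood at 24.8 FPKM in the AAV-Control and 23.1 FPKM in the AAV-Gata1 library (log2 ratio −0.096). Erc2, whose product CAST is largely confined to brain, stood at 13.3 and 12.4 FPKM (log2 ratio −0.087). The ratio of Erc1 to Erc2 was 1.87 and 1.86. Of all genes compared, 21.7% had a lower log2 ratio than Erc1 and 24.3% a lower one than Erc2, so both lay inside the bulk of the distribution.

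**Figure D3:**
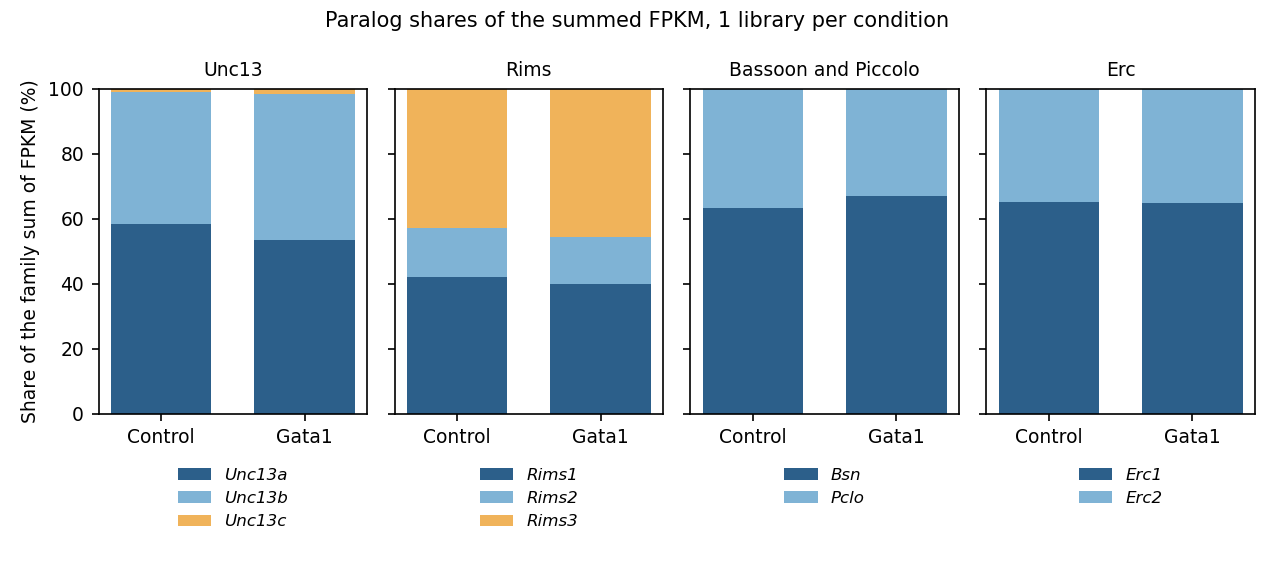
Share of each paralog in the summed FPKM of its family on the vertical axis, in percent, with 1 bar per library, for the Unc13, Rims, Bassoon and Piccolo, and Erc genes. Unc13a takes 58.4% of its family in the control and 53.5% after AAV-Gata1, and Erc1 stays at 65.1% and 65.0% of its pair; the Bsn share uses the higher row of Pclo.

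Genes of proteins that bind the scaffold, listed together with the paralogs Rims4 and Unc13d, were mixed. The list held 36 symbols, of which 35 were compared. In the AAV-Gata1 library 24 were lower and 11 higher, with a median log2 ratio of −0.048, and 2 were at least 1.2-fold lower and none higher. Over all genes compared, 54.7% were lower and 3.98% at least 1.2-fold lower. The 4 furthest from 0 were Unc13d, Lin7b, Cask and Bzrap1. Unc13d, a paralog with low values (1.95 and 1.32 FPKM), and Lin7b were the 2 at least 1.2-fold lower. Lin7b, which encodes a small PDZ protein, stood at 13.6 and 10.9 FPKM (log2 ratio −0.30), and Cask, which encodes its partner kinase-like scaffold, at 31.0 and 26.0 FPKM (log2 ratio −0.25). Bzrap1, which encodes the RIM-binding protein RIM-BP1 that links RIM to calcium channels, stood at 14.1 and 11.9 FPKM (log2 ratio −0.23).

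The subgroups described next were formed after their values were seen. The liprin genes, whose products organise the active zone with RIM and ELKS, were lower in 4 of 6 cases, between −0.17 for Ppfia4 and 0.14 for Ppfia1. The 10 subunit genes of voltage-gated calcium channels were divided evenly in direction, with 5 lower and 5 higher. They lay between −0.16 for Cacna1e and 0.056 for Cacna1a, so the lower values reached further from 0 than the higher ones. Beside both of these subgroup counts, 54.7% of all genes compared were lower. Cacna1a, which encodes the pore of the P/Q-type channel that RIM recruits, stood at 12.6 and 13.1 FPKM (log2 ratio 0.056), and Cacna1b, that of the N-type channel, at 10.5 and 10.5 FPKM (log2 ratio −0.0041).

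Genes that act with the scaffold in docking, priming and fusion of vesicles were mostly lower by small amounts. Of 29 compared, 26 were lower and 3 higher, with a median log2 ratio of −0.097, and 1 was at least 1.2-fold lower and none higher, beside the same 54.7% and 3.98% of all genes. That median is close to the −0.096 of the scaffold members. The gene furthest from 0 was Rab3b, a vesicle GTPase gene, at 20.0 and 15.8 FPKM (log2 ratio −0.32). It was followed by Cplx2, the complexin 2 gene, at 29.9 and 25.8 FPKM (log2 ratio −0.21), Rab3ip, whose product acts on Rab GTPases, at 8.30 and 7.12 FPKM, and Rab3c at 11.03 and 9.52 FPKM. In subgroups also formed after their values were seen, all 5 Rab3 and Rab27 genes were lower. So were all 6 genes of syntaxin, SNAP and VAMP proteins in the list. Of all genes 54.7% were lower, and of the neuron markers described further on 13 of 14. Among the syntaxin, SNAP and VAMP genes, Vamp2 stood at 258 and 232 FPKM (log2 ratio −0.15). Stx1a, whose syntaxin Munc13 opens, stood at 27.9 and 26.3 FPKM, and Snap47 barely differed (log2 ratio −0.0052). The priming genes Cadps and Cadps2 went apart, at 24.3 and 22.3 FPKM (log2 ratio −0.12) and at 3.35 and 3.94 FPKM (log2 ratio 0.18).

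**Figure D4:**
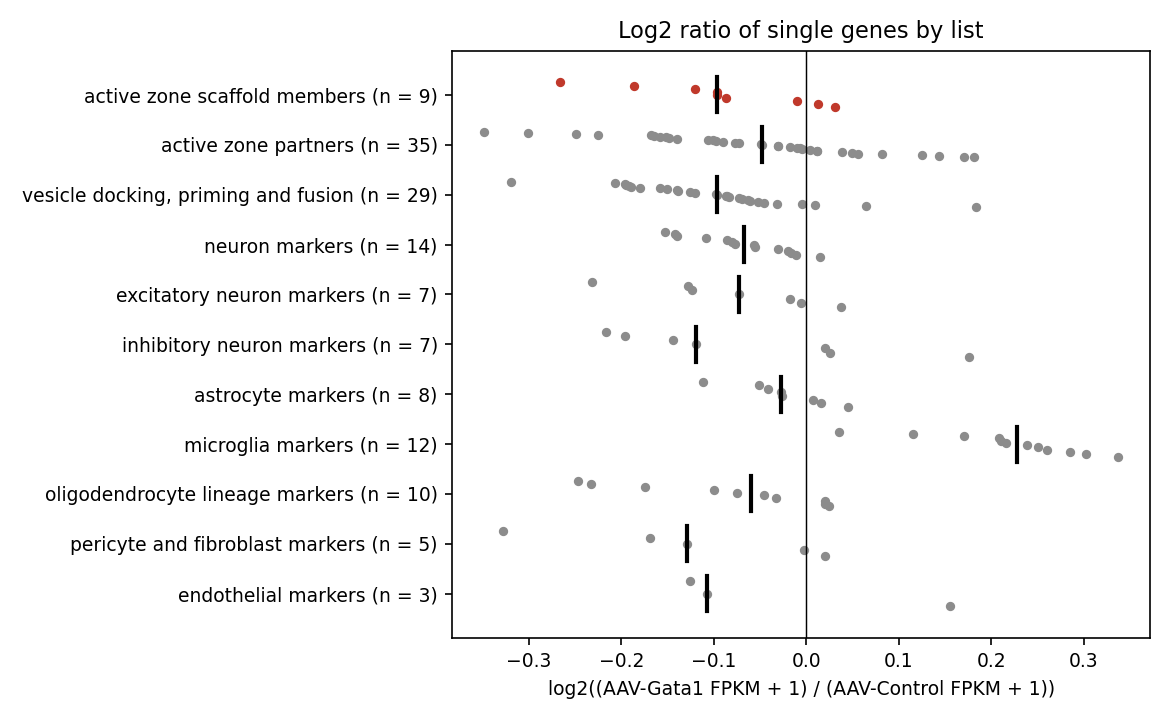
Log2 ratio (AAV-Gata1 over AAV-Control, FPKM + 1) of single genes on the horizontal axis, 1 point per gene with a mean of at least 1 FPKM, by list; black bars are list medians and n is the number of genes. The scaffold members and the docking, priming and fusion genes have medians of −0.096 and −0.097, the neuron markers one of −0.067 and the microglia markers one of 0.23.

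Of the marker lists, only that of microglia had a median log2 ratio above 0. All others, that of neurons included, had medians below 0, as the scaffold genes did. The medians were −0.13 for pericyte and fibroblast (5 of 10 listed were compared), −0.11 for endothelial (3 of 7) and −0.060 for oligodendrocyte lineage markers. Of 15 neuron markers listed 14 were found and compared, all but Tubb3. Of the 14 compared 13 were lower, where 54.7% of all genes compared were, and none was 1.2-fold lower. The same 54.7% stands beside the counts of lower markers in the other lists. The median log2 ratio of the neuron markers was −0.067. Their summed level was 1419 FPKM in the AAV-Control and 1375 FPKM in the AAV-Gata1 library. Snap25 and Syt1 stand in both this list and the fusion list. The most abundant neuron markers were Uchl1 at 275 and 272 FPKM and Stmn2 at 252 and 242 FPKM. Relative to the neuron marker median, which was added as a reference with the values known, Unc13a was at −0.20, Pclo at −0.12 and Rims1 at −0.054, Erc1, Erc2 and Rims2 were between −0.030 and −0.020, and Unc13b, Bsn and Rims3 were above 0, at 0.057, 0.079 and 0.098. In a culture of several cell types, fewer neurons and less RNA of these genes per neuron cannot be told apart.

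Of 7 excitatory neuron markers 6 were lower, with a median of −0.072, with Neurod6 at 59.3 and 60.8 FPKM and Slc17a7 at 33.9 and 33.8 FPKM. Of 7 inhibitory neuron markers 4 were lower, with a median of −0.12, with Sst at 63.3 and 58.2 FPKM and Dlx1 at 58.7 and 59.8 FPKM. The cultures were not pure neurons. Astrocyte markers summed to 2409 and 2402 FPKM, led by Gfap at 887 and 897 FPKM and Slc1a3 at 607 and 610 FPKM, with 5 of 8 lower at a median of −0.027.

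Microglia markers were higher in all 12 compared, where 45.3% of all genes were, at a median of 0.23. Of the 12, 3 were at least 1.2-fold higher, where 3.29% of all genes were. The 14 listed summed to 601 and 708 FPKM, led by Tyrobp (132 and 153 FPKM). P2ry12 and Tmem119 were under 1 FPKM but not at 0 in both libraries. Of 10 markers of the oligodendrocyte lineage 7 were lower, with a median of −0.060, the 11 listed summing to 309 and 295 FPKM, with Olig1 at 87.9 and 83.5 FPKM and Cnp at 59.4 and 60.2 FPKM. Of 5 pericyte and fibroblast markers compared 4 were lower, with a median of −0.13, the 10 listed summing to 145 and 124 FPKM, with Acta2 at 76.4 and 60.7 FPKM and Tagln at 41.5 and 36.8 FPKM. Endothelial markers, of which 3 of 7 were compared, summed to 11.3 and 11.4 FPKM, with Egfl7 at 4.46 and 5.08 FPKM and Slco1a4 at 3.98 and 3.56 FPKM. Of the 3 compared, 2 were lower and 1 higher. The other endothelial markers, Pecam1, Cdh5, Cldn5 and Tek, were under 1 FPKM. So were Rgs5, Col1a1, Col1a2, Col3a1 and Lum of the pericyte and fibroblast list. No marker found in the tables was at 0 in both libraries. The part of these cell types in the members' differences was not tested.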

How the data were processed

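Of 10 samples listed, the mRNA libraries of AAV-Control and AAV-Gata1 were used, 1 each; the other 8 were not analysed here. The deposited values are FPKM per gene, per the file headers. Per the submitters' processing notes, the tools included Cufflinks and Cuffdiff (both 2.1.1) and TopHat2 (2.1.1), and the builds were mm9 and mm10, without a role for each. Strand handling and scaling between libraries: not given in the sources used here.

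There were 40993 rows in each table. The 6 without a symbol (0.0122% and 0.0113% of the summed FPKM) were left out, and per symbol the highest-mean row was used. Of 1283 rows above 0 and under 0.1 FPKM in both libraries, at most 43 shared a log2 ratio within 0.02. No count expected without whole-fragment steps was worked out, so this cannot decide whether such steps exist. The depth stays unknown. Ratios used a pseudocount of 1 FPKM and a minimum mean of 1 FPKM (Python 3.11.15, pandas 2.3.3). The counting was tested on simulated data with set folds well past the 1.2-fold limit. That checks the counting itself and not a call near the limit, such as that of Unc13a. With 1 library per condition no test was run.

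All members are named. Of each related list the 4 genes furthest from 0 and the remaining paralogs Rims4 and Unc13d are named, of each marker list the 2 most abundant (1 of the microglia list is not reported here), and others were chosen after their values were seen. Members and lists were chosen with earlier results of these data known. Alternatives were another pseudocount, minimum level, centring, TPM scaling and row choice.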

Additional observations from a re-analysis of the deposited data

How the results depend on the processing

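The count of 7 members lower in the AAV-Gata1 library lay between 5 and 7 under all alternatives tried; 5 was reached at a minimum mean of 5 FPKM, where 7 members were left. The call of Unc13a as 1.2-fold lower rests on the limit. Its log2 ratio of −0.27 became −0.25 when ratios were centred on the median of all genes and −0.20 when centred on that of the neuron markers, and in both settings 0 members passed 1.2-fold (1 in all others); the subtraction alone moves it across the limit. No test exists behind these counts. The median of the members, −0.096, became −0.030 with neuron marker centring, and was between −0.10 and −0.084 in every other setting. Unc13b turned from −0.010 to 0.0026 and 0.057 under the same 2 centrings, and Pclo to 0.11 with its other row. The share of all genes that were lower was 54.7%, but 30.02% with neuron marker centring (6 members lower) and 27.8% with no minimum level (7 members lower). The share at least 1.2-fold lower was 2.31% at a minimum mean of 5 FPKM, 2.52% with no minimum, 2.32% with neuron marker centring and 6.10% without a pseudocount, against 3.98%. Neuron marker centring, the other row of Pclo, leaving Pclo out and the ratio with no pseudocount were added after the data were seen. No paired analysis was possible because each condition has 1 library and the result comes from no test. Leaving out a replicate was not possible for the same reason. Unknown depth means that no counting error can be given for any FPKM value.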
